A study of Mus musculus with 2 samples.

Results

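Magnesium handling along the mouse thick ascending limb (TAL) was followed through 8 genes: Cnnm2, Cnnm3, Cnnm4, Slc41a1, Slc41a3, Trpm6, Trpm7 and Rragd, out of the 32227 genes listed in the count matrices. The 8 genes were fixed by name, but with earlier results of these data known. All 8 were found in both libraries under 1 identifier each. The study sorted GFP-positive nuclei from kidneys of male mice of the B6 strain (genotype label WT, age label 12 with no unit given) and sequenced 1 library from dissected cortex and 1 from dissected medulla. Both libraries came from the same kind of mouse, NKCC2-INTACT: a tamoxifen-inducible Cre driven from Slc12a1 (NKCC2, the apical sodium-potassium-chloride cotransporter of the TAL) switched on a Sun1-sfGFP tag of the nuclear membrane, so only nuclei from tubule cells that had recombined should pass the sort. The dissection took a superficial strip as cortex and all remaining tissue as medulla, so the medulla library also holds deep cortex. The number of mice behind a library is not given in the sources used here.

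In the kidney most filtered magnesium is recovered in the TAL, passively and between cells, through tight junctions that contain claudin 16 and claudin 19. The distal convoluted tubule (DCT), the segment that follows the macula densa (MD), then recovers magnesium through the cells: it enters by apical channels of the TRPM6 and TRPM7 type and leaves across the basolateral membrane, where CNNM2 and exchangers of the SLC41 family are placed. RRAGD encodes RagD, a small GTPase that carries nutrient signals to mTORC1 and TFEB at the lysosome, and human variants of TRPM6, CNNM2 and RRAGD cause inherited renal magnesium wasting.

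Called barcodes (nuclei) were put into classes by counts of genes outside the 8. A TAL barcode had at least 10 Slc12a1 counts. Among these, MD required at least 3 counts of Nos1 and Pappa2 together, TAL-β at least 2 counts of Tmem52b, and TAL-γ at least 2 counts of Tmem207 and Gpc5 together, in that order, and the remainder were TAL-α. Barcodes with at least 5 counts of Slc12a3 (NCC, the sodium-chloride cotransporter of the DCT) formed a DCT class for contrast and were not counted in a TAL class. The cortex library held 5442 called barcodes with 16457300 counts and the medulla library 8121 with 20947211, with medians of 2427 and 2430 counts per barcode and 0 barcodes in common. The classes held 2813 TAL-α, 1461 TAL-β, 248 TAL-γ, 649 MD and 92 DCT barcodes in cortex, and 3775, 566, 3542, 78 and 15 in medulla.

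Marker genes that the class rule did not use were then examined. Several of them, such as Kcnj10, Cldn16, Wnk1 and Ptger3, were reported by the study to differ between TAL types in these same data. They are therefore not an independent check of the classes. The MD markers (Ptgs2, Avpr1a and Robo2) summed to 4980 CPM (a gene's counts divided by the class total, scaled to a common depth) in cortical MD and to 5939 CPM in medullary MD, against 7.62 to 483 CPM in the other TAL classes. Robo2 made up nearly all of this sum, 4886 CPM in cortical MD, beside 87.7 CPM of Ptgs2 and 6.79 CPM of Avpr1a. Kcnj10 stood at 142 and 170 CPM in TAL-β of cortex and medulla and at 109 CPM in medullary TAL-γ, against 17.7 and 13.2 CPM in TAL-α. The other TAL-β markers (Cldn16, Pth1r and Wnk1) differed less in cortex. They stood at 101, 298 and 879 CPM in TAL-α against 195, 583 and 2312 CPM in TAL-β. The TAL-α markers (Cldn10, Ptger3, Cacnb2 and Kcnma1) summed to 2181 CPM in cortical TAL-α and 477 CPM in cortical TAL-β. The 248 cortical barcodes that met the TAL-γ rule carried Cldn16 at 153 CPM and Kcnj10 at 144 CPM. Cortical TAL-β was close to this (195 and 142 CPM), whereas medullary TAL-γ held Cldn16 at 55.0 CPM. Kcnt1 (43.6 CPM) and Cldn10 (156 CPM) in these barcodes stood above cortical TAL-β (8.42 and 114 CPM). The TAL-γ markers (Cldn10, Kcnj10 and Kcnt1) summed to 344 CPM in them, against 253 CPM in cortical TAL-α and 265 CPM in cortical TAL-β. The TAL-β markers with Kcnj10 summed to 2482 CPM in them, 1731 of it from Wnk1. That sum was 3231 CPM in cortical TAL-β, 1296 CPM in cortical TAL-α and 663 CPM in medullary TAL-γ. As the markers of the 248 cortical barcodes were mixed, these barcodes are called the cortical Tmem207/Gpc5 class here. Proximal tubule (PT) markers reached at least 5 counts in 6.47% to 18.5% of barcodes of each cortical class but in 0% to 3.00% of each medullary class.

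Levels are CPM of counts summed over the barcodes of a class, with exact Poisson 95% intervals. Ratios carry exact conditional 95% intervals. Both cover counting error only. With 1 library per region there was no replicate and no test, and a difference was counted when it reached 1.5-fold in either direction on at least 50 summed counts. Reads were counted toward the 3′ end of nuclear RNA, so levels are compared for 1 gene between classes and not between genes.

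**Figure D1:**
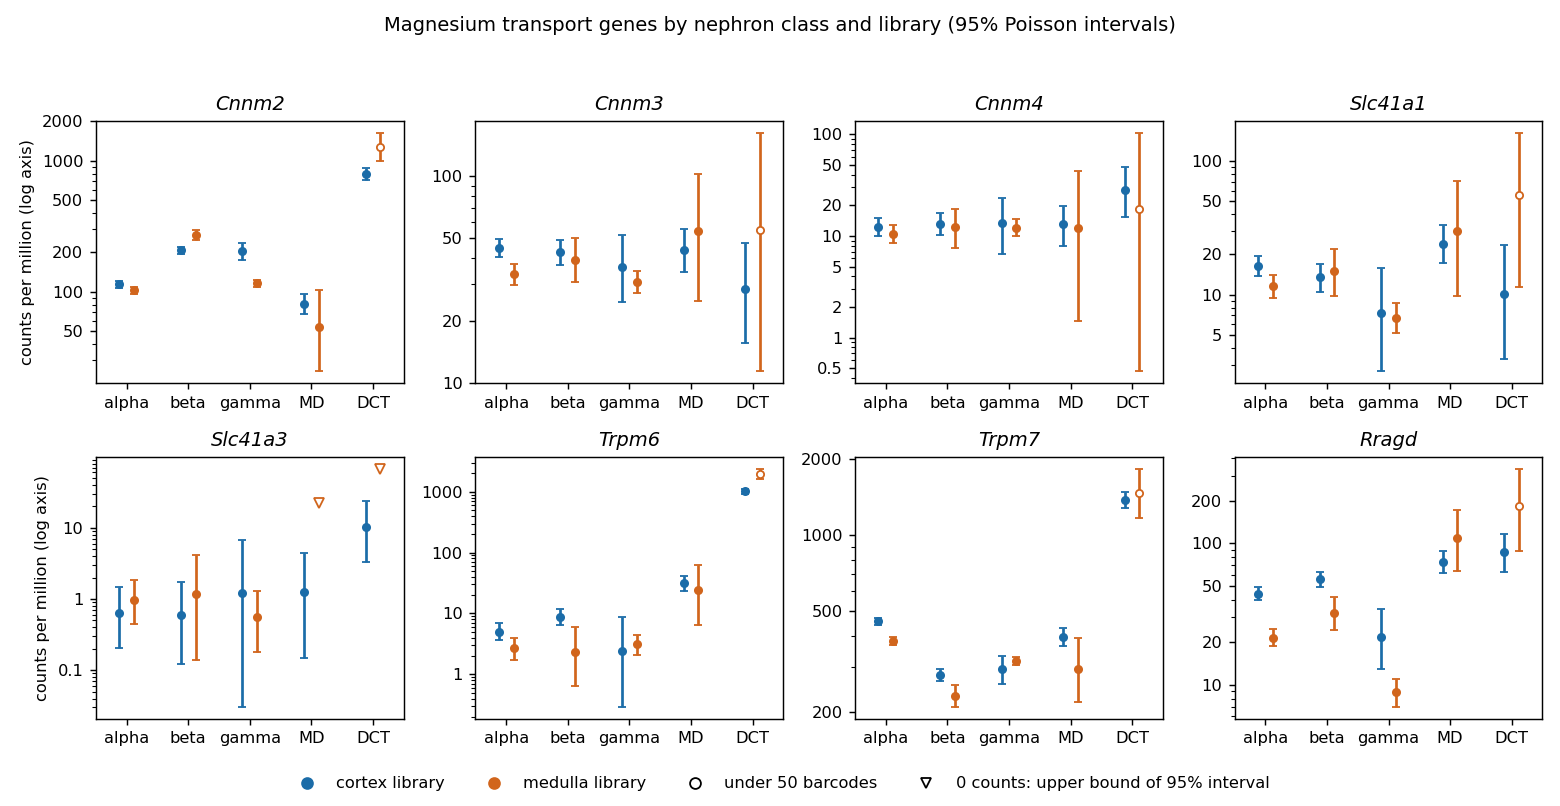
Level of each of the 8 genes in CPM (log axes) in the TAL-α, TAL-β, TAL-γ, MD and DCT classes of the cortex (blue) and medulla (orange) libraries. Points are a gene's summed counts over the total counts of the class, and bars are 95% Poisson intervals. Open circles mark the class of under 50 barcodes and open triangles mark the upper bound where 0 counts were seen. The cortical gamma point is the Tmem207/Gpc5 class. Trpm6, Cnnm2 and Trpm7 stood highest in DCT barcodes of both libraries, and Cnnm2 stood higher in TAL-β than in TAL-α in both.

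CNNM proteins are membrane proteins with a cystathionine beta-synthase domain that are tied to magnesium export, and CNNM2 is the member mutated in renal magnesium wasting. Cnnm2 (chromosome 19, 46749986 to 46868631 on GRCm39, plus strand, a 119 kb gene) stood at 115 CPM (107 to 122) in cortical TAL-α and 207 CPM (195 to 220) in cortical TAL-β. In medulla it stood at 103 CPM (96.6 to 110) in TAL-α and 272 CPM (248 to 298) in TAL-β. The intervals of the 2 classes did not overlap in either library. The cortical β over α ratio was 1.81 (1.65 to 1.98), that of medulla was 2.64 (2.36 to 2.95), and each kept its direction, staying between 1.62 and 2.08 in cortex and between 2.14 and 2.77 in medulla under each alternative tried.

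Medullary TAL-γ held Cnnm2 at 116 CPM (110 to 124), a ratio of 1.13 (1.04 to 1.24) to medullary TAL-α. TAL-γ, which carries the Cldn10 and Kcnj10 markers, was thus far closer to TAL-α than to TAL-β in its Cnnm2 level. The cortical Tmem207/Gpc5 class stood at 204 CPM (174 to 237), with an interval that overlapped that of cortical TAL-β. MD held the lowest levels of Cnnm2, 81.5 CPM (68.2 to 96.6) in cortex and 54.2 CPM (24.8 to 103) in medulla. The cortical MD over TAL-α ratio was 0.711 (0.588 to 0.855), ranged from 0.580 to 0.774 over the alternatives and so passed 1.5-fold in some of them. That of MD over TAL-β was 0.393 (0.326 to 0.472).

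At the level of single nuclei, at least 1 Cnnm2 count was seen in 24.1% of cortical TAL-α (exact 95% interval 22.5% to 25.7%), 42.4% of cortical TAL-β and 15.4% of cortical MD barcodes. In medulla the shares were 19.2% of TAL-α, 49.6% of TAL-β and 21.8% of TAL-γ. After each barcode was thinned to 1000 counts they were 10.5%, 20.4% and 6.16% in cortex and 9.18%, 23.9% and 10.3% in medulla. Barcodes of the PT type with at most 2 Slc12a1 counts were set beside these. After thinning they gave 5.95% (5 of 84) in cortex and 9.89% (9 of 91) in medulla. They carry markers of another cell type whose own Cnnm2 expression was not tested, so their share is not a floor. The thinned TAL-β shares lay above theirs, while those of medullary TAL-α, of medullary TAL-γ and of cortical MD lay close to them. Cortical TAL-α (10.5%) lay in between, and 5 PT-type barcodes are too few to rank it. By level, PT-type barcodes held Cnnm2 at 143 CPM (109 to 186) in cortex, with 15 of 57 counts in 1 barcode. In medulla they held it at 102 CPM (73.8 to 136). These intervals held the TAL-α level of each library and lay below the TAL-β level. Barcodes that were not called as nuclei gave Cnnm2 levels of 117 CPM (107 to 129) in cortex, close to TAL-α, and 86.1 CPM (75.3 to 98.0) in medulla.

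Cnnm3, a widely expressed family member (chromosome 1, 36550884 to 36567318, plus strand), varied little. Its levels ran from 28.4 to 45.0 CPM across the 5 cortical classes and from 30.8 to 54.2 CPM across the 4 TAL classes of medulla. Its β over α ratio was 0.955 (0.802 to 1.13) in the cortex library and 1.18 (0.891 to 1.53) in the medulla library. Cnnm3 overlaps 2 other listed genes, Ankrd23 and Gm38033, both on the opposite strand, and the strand setting of the counting is not given in the sources used here.

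Cnnm4, known for basolateral magnesium export in intestine and enamel (chromosome 1, 36510701 to 36547845, plus strand), stood between 10.6 and 13.3 CPM in every TAL class of both libraries. The interval of each TAL class overlapped that of its neighbour in the order of levels. Uncalled barcodes held Cnnm4 at a similar level, 9.85 CPM (6.90 to 13.6) in cortex and 12.9 CPM (8.93 to 18.0) in medulla. Cnnm4 stood at 28.4 CPM (15.5 to 47.6) in cortical DCT barcodes, from 14 counts.

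Cnnm1, the family member outside the 8 genes, ran the other way to Cnnm2 between TAL-β and TAL-α. It stood at 74.9 CPM in cortical TAL-α and 43.7 CPM in cortical TAL-β, a β over α ratio of 0.584 (0.498 to 0.683). In medulla it stood at 137 CPM in TAL-α and 67.2 CPM in TAL-β, a ratio of 0.491 (0.402 to 0.594), and it reached 180 CPM in medullary TAL-γ. Cnnm1 was higher in medulla than in cortex, with ratios of 1.83 (1.66 to 2.02) in TAL-α and 1.54 (1.22 to 1.93) in TAL-β.

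TRPM7 is a channel with its own kinase domain that most cells express, and TRPM6 is its close relative, known from the apical membrane of the DCT and from colon. Trpm7 (chromosome 2, 126633480 to 126718182, minus strand) stood at 455 CPM (441 to 471) in cortical TAL-α and 280 CPM (265 to 295) in cortical TAL-β. In medulla it stood at 381 CPM in TAL-α, 318 CPM in TAL-γ and 232 CPM in TAL-β. TAL-β held the lowest level in both libraries, although in cortex its interval overlapped that of the Tmem207/Gpc5 class (295 CPM). In medulla the TAL-β interval (210 to 256) overlapped that of MD, 295 CPM (218 to 390). The cortical β over α ratio of 0.615 (0.577 to 0.654) and the medullary ratio of 0.608 (0.547 to 0.675) had overlapping intervals. The medullary ratio rose to 0.778 (0.710 to 0.851) when the classes were set by Cldn10, Cldn16 and Kcnj10 counts instead, and the cortical ratio to 0.690 (0.650 to 0.731) when barcodes with at least 5 Slc12a3 counts were kept in the TAL classes, both short of 1.5-fold.

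MD held Trpm7 at 396 CPM in cortex, a ratio of 0.869 (0.798 to 0.945) to TAL-α. At least 1 Trpm7 count was seen in 64.3% of cortical TAL-α and 48.9% of cortical TAL-β barcodes, although the median depth of TAL-β (2648 counts) was above that of TAL-α (2423 counts). The shares were 34.6% and 21.6% after thinning to 1000 counts. PT-type barcodes held Trpm7 at 498 CPM (cortex) and 526 CPM (medulla), so its level was not particular to TAL nuclei. Uncalled barcodes held Trpm7 at 351 CPM (332 to 371) in cortex and 304 CPM (283 to 326) in medulla, above TAL-β of each library.

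Trpm6 (chromosome 19, 18727089 to 18869875, plus strand) was near the limit of detection in the TAL. It gave 40 counts in 2813 cortical TAL-α barcodes (5.05 CPM, 3.61 to 6.88), 44 in 1461 cortical TAL-β barcodes (8.82 CPM, 6.41 to 11.8) and 2 in the cortical Tmem207/Gpc5 class. In medulla it gave 25 counts in TAL-α (2.67 CPM), 4 in TAL-β (2.32 CPM) and 28 in TAL-γ (3.09 CPM). These levels were below those of barcodes not called as nuclei, 37.8 CPM (31.7 to 44.6) in cortex and 7.58 CPM (4.63 to 11.7) in medulla. The cortical β over α ratio of 1.75 (1.11 to 2.75) rested on 7 counts from 1 barcode among the 44, moved to 3.26 when barcodes with at least 5 Slc12a3 counts were kept in the TAL classes, and fell to 1.43 as a mean over barcodes.

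Macula densa nuclei differed from the other TAL classes in Trpm6. Cortical MD gave 51 Trpm6 counts in 44 of 649 barcodes, 31.5 CPM (23.4 to 41.4), and medullary MD gave 4 counts in 78 barcodes, 24.1 CPM (6.56 to 61.7). At least 1 count was seen in 6.78% of cortical MD barcodes against 1.17% of cortical TAL-α, although the median depth of MD (1880 counts) was the lower. The cortical MD ratio was 6.23 (4.04 to 9.68) to TAL-α and 3.57 (2.34 to 5.47) to TAL-β. It fell to 3.17 (2.31 to 4.32) to TAL-α with barcodes of at least 5 Slc12a3 counts kept, under which Trpm6 stood at 42.6 CPM in MD (71 counts) and 13.4 CPM in TAL-α (107 counts).

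The MD level itself did not exceed that of the uncalled barcodes of cortex. In medulla the MD level, 24.1 CPM (6.56 to 61.7), rested on 4 counts. It was above the 7.58 CPM (4.63 to 11.7) of uncalled medullary barcodes, with overlapping intervals. The company in which Trpm6 was found was therefore measured. Cortical DCT barcodes held 7.75 Slc12a3 counts per Trpm6 count (7.06 to 8.52) and uncalled cortical barcodes 8.60 (7.21 to 10.3). Cortical MD barcodes held 13 Slc12a3 counts beside their 51 Trpm6 counts, a ratio of 0.255 (0.127 to 0.476). Of the 51, 50 lay in barcodes with 0 Slc12a3 counts. As 638 of the 649 MD barcodes had 0 Slc12a3 counts, most counts of any gene would lie there, and this split says nothing about the source of Trpm6. The class rule lowers Slc12a3 in MD, because barcodes with at least 5 counts were moved to the DCT class, and with these 4 barcodes kept the MD ratio was 2.52 (1.90 to 3.37), below that of the uncalled barcodes. A low ratio was not particular to MD: it was 1.28 (0.826 to 1.98) in cortical TAL-α, 0.864 (0.544 to 1.36) in cortical TAL-β, 0.640 in medullary TAL-α and 0.714 in medullary TAL-γ. The same rule lowers these too, and with the barcodes kept the ratio was 4.55 (3.68 to 5.66) in cortical TAL-α and 6.00 (5.21 to 6.93) in cortical TAL-β. The other DCT markers did not move together in cortical MD. Klhl3 stood at 318 CPM in MD, against 142 CPM in TAL-α and 108 CPM in TAL-β, and Slc8a1 at 94.5 CPM against 70.3 and 186 CPM. Calb1 stood at 8.03 CPM against 10.6 and 31.1 CPM, Trpv5 gave 1 count and Pvalb 0, and the 5 markers summed to 421 CPM against 224 and 330 CPM. The part of DCT RNA in the Trpm6 counts of the TAL classes was not tested. No single barcode held more than 3 of the 51 counts. Of cortical MD barcodes, 6.78% (4.97% to 8.99%) had a Trpm6 count, against 8.33% (3.42% to 16.4%) of cortical PT-type barcodes, 7 of 84. After thinning the shares were 2.93% and 3.57%, the latter from 3 of 84 barcodes. PT-type barcodes had a median depth of 3488 counts, and 17 of their 29 Trpm6 counts lay in 1 barcode. So few PT-type barcodes cannot rank the MD and PT-type shares. By its share alone the MD signal is therefore not set apart from these PT-type barcodes. Cortical TAL-α (1.17%) and TAL-β (2.05%) lay below both, so the PT-type share is not a floor for that library. The source of Trpm6 in PT-type barcodes was not tested. Medullary PT-type barcodes gave 0 Trpm6 counts in 91 barcodes.

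**Figure D2:**
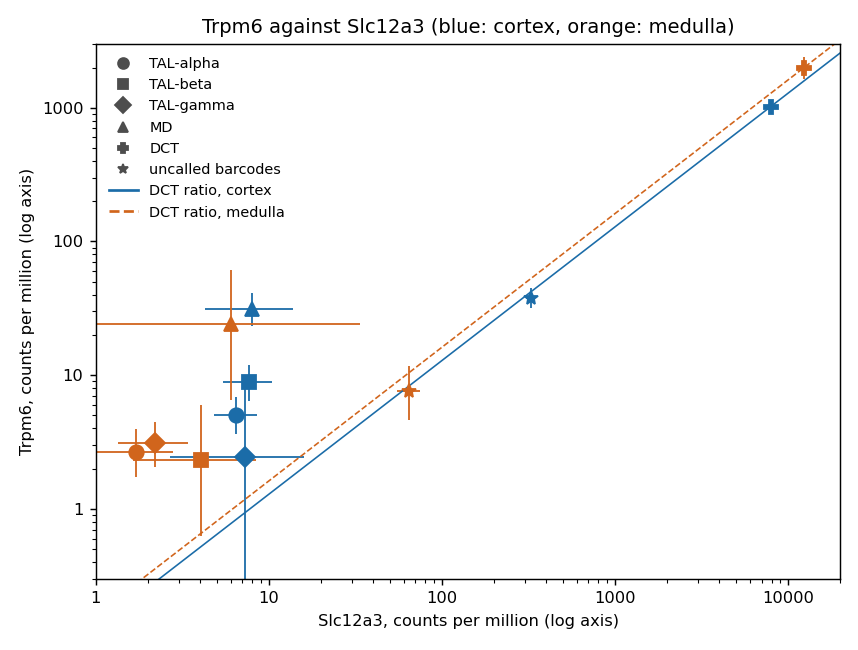
Trpm6 level against Slc12a3 level in CPM (log axes) for each class and for barcodes not called as nuclei, in the cortex (blue) and medulla (orange) libraries, with 95% Poisson intervals. Lines hold the Slc12a3 to Trpm6 ratio of the DCT barcodes of each library. The uncalled barcodes lie on these lines, whereas cortical MD, at 31.5 CPM of Trpm6 and 8.03 CPM of Slc12a3, lies above them, as do cortical TAL-α (5.05 and 6.44 CPM) and TAL-β (8.82 and 7.62 CPM) at lower levels of Trpm6. The TAL and MD classes drawn leave out barcodes of at least 5 Slc12a3 counts, which lowers their Slc12a3. With these kept the cortical Slc12a3 to Trpm6 ratio was 2.52 in MD, 4.55 in TAL-α and 6.00 in TAL-β.

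SLC41A1 is a sodium-dependent magnesium exchanger of the plasma membrane. Slc41a1 (chromosome 1, 131755231 to 131776603, plus strand) was lowest in medullary TAL-γ, 6.74 CPM (5.15 to 8.65) from 61 counts, against 11.5 CPM (9.45 to 13.9) in medullary TAL-α and 15.1 CPM (9.84 to 22.1) in medullary TAL-β. The γ over α ratio was 0.585 (0.420 to 0.808) and stayed between 0.368 and 0.652 under each alternative tried. Its highest TAL levels were in MD, 24.1 CPM (17.1 to 32.9) in cortex and 30.1 CPM (9.78 to 70.3) in medulla, where 39 and 5 counts were seen. The cortical MD ratio was 1.47 (0.998 to 2.11) to TAL-α and 1.79 (1.18 to 2.70) to TAL-β. The former passed 1.5-fold with stricter class thresholds (1.64). Uncalled barcodes held Slc41a1 at 17.5 CPM (13.5 to 22.4) in cortex and 12.1 CPM (8.30 to 17.1) in medulla.

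Slc41a3 is the family member known for its high level in the DCT (chromosome 6, 90581677 to 90623394, plus strand). It gave 11 counts in 5171 cortical TAL barcodes and 16 in 7961 medullary TAL barcodes, too few for a comparison of TAL classes. It overlaps Gm15756 on the opposite strand. In cortical DCT barcodes it gave 5 counts in 92 barcodes, 10.1 CPM (3.29 to 23.7) against 0.717 CPM (0.358 to 1.28) in all cortical TAL barcodes. It gave 0 counts in 15 medullary DCT barcodes, which allows up to 55.2 CPM at 3 counts, and 0 in medullary MD, which allows up to 18.1 CPM.

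Rragd (chromosome 4, 32982984 to 33025899, plus strand) was the member that varied most among TAL classes apart from Trpm6. In medulla it stood at 108 CPM (64.3 to 171) in MD, 32.4 CPM (24.5 to 42.1) in TAL-β, 21.5 CPM (18.7 to 24.7) in TAL-α and 8.83 CPM (7.00 to 11.0) in TAL-γ. In cortex it stood at 74.1 CPM (61.4 to 88.6) in MD, 55.8 CPM (49.4 to 62.7) in TAL-β, 44.2 CPM (39.7 to 49.1) in TAL-α and 21.8 CPM (12.9 to 34.5) in the Tmem207/Gpc5 class. MD stood first and TAL-β second in both libraries. Within a library the intervals of neighbouring classes overlapped for MD and TAL-β in cortex and, by a small margin, for TAL-β and TAL-α in medulla, and were apart for the others.

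The medullary γ over α ratio of Rragd was 0.410 (0.313 to 0.534), and it was 0.710 (0.330 to 1.36) with classes set by Cldn10, Cldn16 and Kcnj10 counts, under which TAL-γ shrank to 279 barcodes. The β over α ratio of the cortex library was 1.26 (1.07 to 1.48), and that of the medulla library 1.51 (1.10 to 2.03). The medullary value sat at the 1.5-fold limit and fell to 1.28 with looser class thresholds, while the cortical value rose to 1.58 when thinned. The MD over TAL-α ratio was 1.68 (1.35 to 2.07) in the cortex library, and in the medulla library it reached 5.03 (2.92 to 8.16) on 18 MD counts.

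Within TAL-α, 2 of the 7 genes with enough counts reached 1.5-fold between medulla and cortex, both lower in medulla. Of all genes compared 21.4% reached it, 2083 lower and 605 higher in medulla. Rragd fell from 44.2 to 21.5 CPM, a medulla over cortex ratio of 0.487 (0.408 to 0.581), and Trpm6 had a ratio of 0.528 (0.307 to 0.892). The Trpm6 ratio was 0.198 with barcodes of at least 5 Slc12a3 counts kept and 0.771 with looser class thresholds. Within TAL-β, 1 of 6 genes reached 1.5-fold, again Rragd at 0.582 (0.429 to 0.778), against 19.3% of all genes (1655 lower and 343 higher). In both classes the count of members and its direction were thus near those of all genes. Cnnm2 was 1.31 (1.18 to 1.47) times as high in medullary as in cortical TAL-β and 0.899 (0.821 to 0.986) times in TAL-α. Trpm7 was lower in medulla in both classes, at 0.836 (0.798 to 0.876) and 0.828 (0.739 to 0.926).

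The uncalled barcodes differed between libraries in the same direction for Rragd, 52.5 CPM in cortex and 20.5 CPM in medulla, and for Trpm6. PT markers also differed between libraries. The Rragd ratio of TAL-α was 0.457 with barcodes of other cell types left out, a step that does not remove free RNA from the barcodes kept. The part of free RNA and of PT RNA in these ratios was not tested. Region, library and dissected tissue cannot be told apart with 1 library each.

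Between TAL-β and TAL-α, 3 of 7 genes with enough counts reached 1.5-fold in cortex (Cnnm2 and Trpm6 higher, Trpm7 lower) and 3 of 6 in medulla (Cnnm2 and Rragd higher, Trpm7 lower), where 9.43% and 14.9% of all genes reached it. Cnnm2 and Trpm7 were the members past 1.5-fold in both libraries. Over the alternatives only Cnnm2 stayed past it in both. Trpm6 fell to 1.43 in cortex and Rragd to 1.28 in medulla, and Trpm7 came to 0.690 in cortex and 0.778 in medulla. Between medullary TAL-γ and TAL-α, 2 of 7 reached it (Slc41a1 and Rragd, both lower), against 7.8% of all genes. Between cortical MD and TAL-α, 2 of 7 reached it (Trpm6 and Rragd, both higher), against 25.4% of all genes, so the count for MD was near the background.

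**Figure D3:**
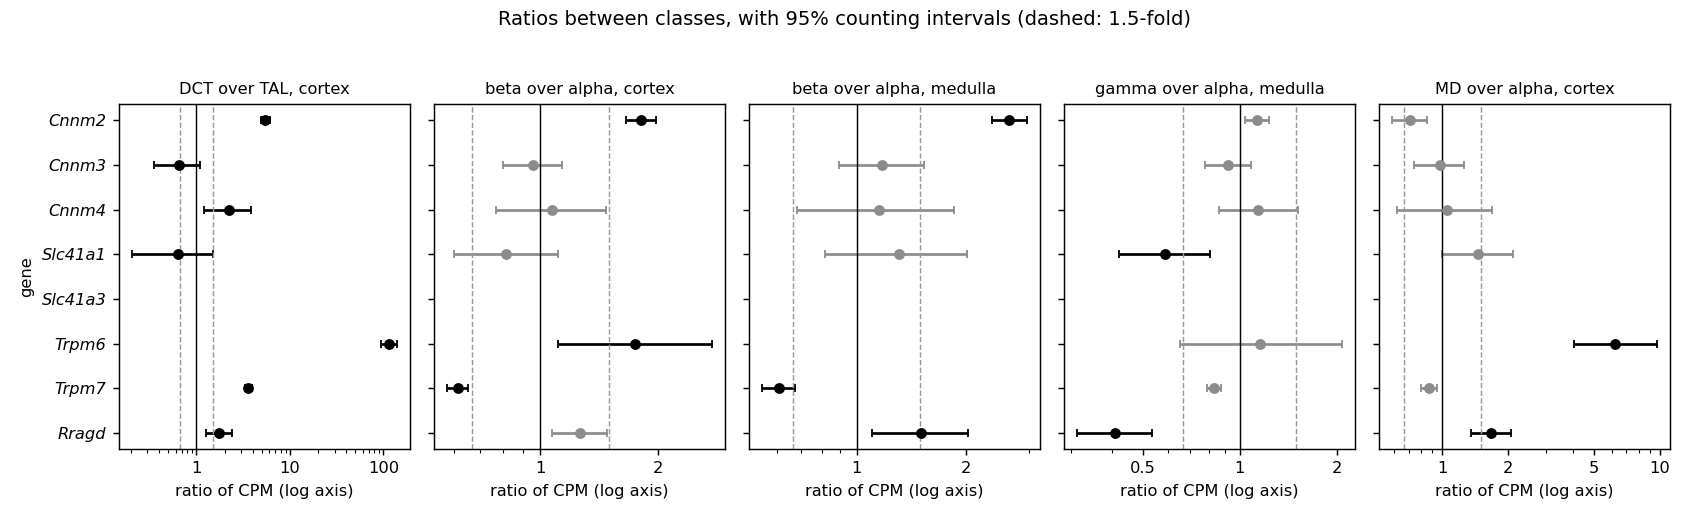
Ratio of CPM between classes (log axes) for each gene, with 95% counting intervals, for DCT over all TAL classes, TAL-β over TAL-α, TAL-γ over TAL-α and MD over TAL-α. Black points reached 1.5-fold (dashed lines), grey points did not, and pairs with under 50 summed counts are not drawn. Cnnm2 lies to the right of 1 and Trpm7 to the left in both TAL-β panels, and Trpm6 lies far to the right for DCT (115) and for MD (6.23).

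The 92 cortical DCT barcodes carried their own markers (Pvalb, Calb1, Klhl3, Trpv5 and Slc8a1, summed to 10305 CPM, 8016 of it from Slc8a1, against 210 to 421 CPM in the cortical TAL classes), and 47 of them also had at least 10 Slc12a1 counts. All 7 genes with enough counts reached 1.5-fold between DCT and TAL, where 34.3% of all genes did. Trpm6 stood at 1022 CPM (935 to 1115) in DCT against 8.93 CPM in TAL, a ratio of 115 (94.6 to 139). Cnnm2 stood at 797 CPM (720 to 880) against 146 CPM, a ratio of 5.46 (4.89 to 6.08). Trpm7 stood at 1377 CPM (1275 to 1484) against 384 CPM, a ratio of 3.59 (3.31 to 3.89).

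Cnnm4 (2.22) and Rragd (1.75) were also higher in DCT, on 14 and 43 DCT counts. The ratios of Cnnm3 (0.649, 0.353 to 1.10) and Slc41a1 (0.643, 0.207 to 1.52) were below 1, but their intervals held 1, and they left the 1.5-fold range under several alternatives. Trpm6 had a DCT over MD ratio of 32.5 (24.3 to 44.2), while Rragd in DCT (87.2 CPM) was 1.18 (0.811 to 1.68) times its MD level.

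The 45 DCT barcodes with under 10 Slc12a1 counts had a median of 0 such counts and held Trpm6 at 1483 CPM, Cnnm2 at 1214 CPM and Trpm7 at 2013 CPM. The 47 with at least 10 had a median of 38, and held the 3 genes at 808, 603 and 1081 CPM. The latter lay between the former and the TAL levels for each of the 3 genes. Doublets of a DCT and a TAL nucleus and cells that express both cotransporters were not separated. The 15 medullary DCT barcodes, too few for a ratio, held Trpm6 at 1986 CPM (1629 to 2397), Cnnm2 at 1287 CPM (1003 to 1626), Trpm7 at 1471 CPM (1166 to 1831) and Rragd at 184 CPM (88.2 to 338). The first 3 lay above every TAL class of that library, and the interval of Rragd overlapped that of medullary MD.

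Over the alternatives the DCT over TAL ratio ran from 39.2 to 167 for Trpm6, from 5.12 to 7.99 for Cnnm2 and from 3.45 to 5.54 for Trpm7. With barcodes of at least 5 Slc12a3 counts also kept in the TAL classes, the Trpm6 ratio fell from 115 to 39.2 (34.3 to 44.8). Without barcodes that carried markers of other cell types, the Trpm7 ratio rose from 3.59 to 5.54 (5.04 to 6.07), and thinning gave 5.35. At least 1 count of Trpm6 was seen in 85.9% of cortical DCT barcodes and 5 or more in 51 of 92, of Cnnm2 in 92.4% and of Trpm7 in 94.6%.

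**Figure D4:**
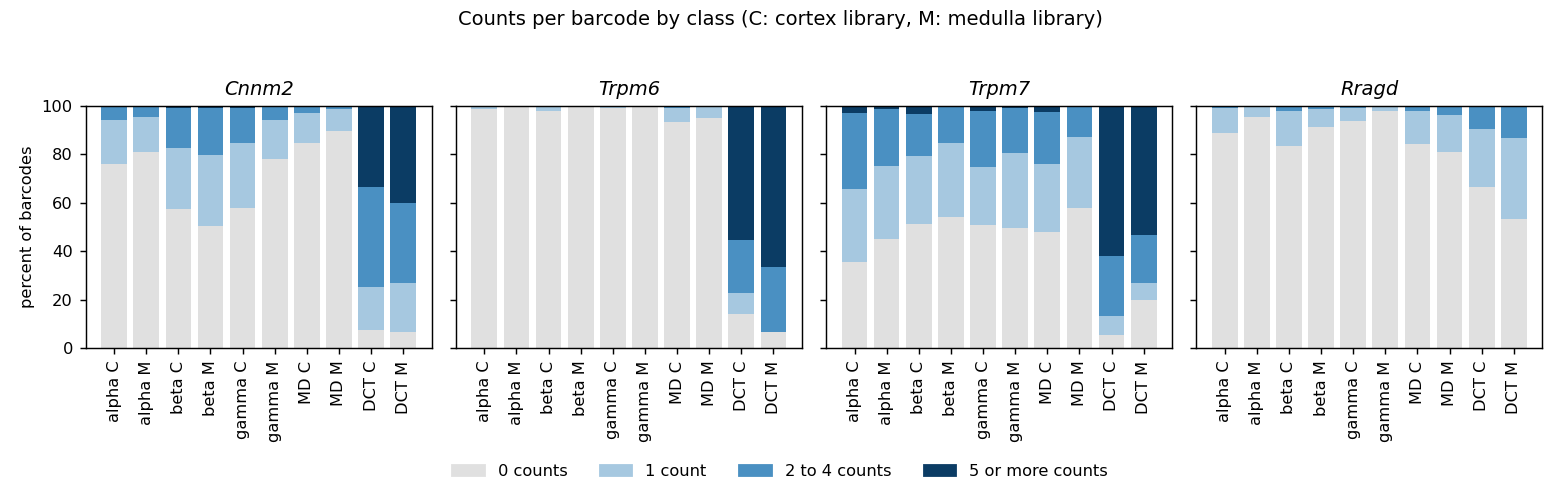
Percent of barcodes with 0, 1, 2 to 4 and 5 or more counts of Cnnm2, Trpm6, Trpm7 and Rragd in each class (C, cortex library; M, medulla library), without thinning. Trpm6 counts of 5 or more were seen in 51 of 92 cortical DCT barcodes and 2 of 5171 cortical TAL barcodes, whereas Cnnm2 and Trpm7 are seen in a share of every class.

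Promoters of the 3 genes with the highest DCT over TAL ratios, among those with at least 50 summed counts, are shown because these genes stood high in the same barcodes. All 8 genes had an entry in the RefSeq promoter table (GRCm38.p6), which holds 250 bases before and 50 after a start site, and each sequence matched GRCm39 exactly once. The 250 bases before the start site of Trpm6 (chr19:18726844-18727093, plus strand), Cnnm2 (chr19:46749798-46750047, plus strand) and Trpm7 (chr2:126718182-126718431, minus strand) are given from 5′ to 3′, with CACGTG in capitals.
Trpm6: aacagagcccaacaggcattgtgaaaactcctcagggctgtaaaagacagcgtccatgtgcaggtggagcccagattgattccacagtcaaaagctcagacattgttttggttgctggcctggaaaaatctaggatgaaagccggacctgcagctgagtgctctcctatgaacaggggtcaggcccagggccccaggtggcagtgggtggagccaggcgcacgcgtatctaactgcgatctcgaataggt
Cnnm2: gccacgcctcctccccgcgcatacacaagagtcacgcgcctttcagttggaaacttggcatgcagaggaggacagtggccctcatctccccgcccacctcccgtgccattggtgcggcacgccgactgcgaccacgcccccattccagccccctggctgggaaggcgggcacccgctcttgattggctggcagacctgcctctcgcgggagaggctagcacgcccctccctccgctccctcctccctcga
Trpm7: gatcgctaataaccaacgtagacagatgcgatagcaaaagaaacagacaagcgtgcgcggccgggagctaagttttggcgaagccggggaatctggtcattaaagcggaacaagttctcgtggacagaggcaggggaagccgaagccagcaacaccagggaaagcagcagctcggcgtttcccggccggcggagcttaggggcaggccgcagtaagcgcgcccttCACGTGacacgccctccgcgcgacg

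Across the full 300 bases on both strands, CACGTG (the E-box that TFEB and its relatives bind) was found 2 times in Trpm7, starting 25 bases before and 16 bases after the start site, and 1 time in Slc41a3, whose RefSeq start site lies 14551 bases from the canonical start of the annotation, where those of the other genes lie within 51 bases. It was in 7.17% of 32544 promoters of this table. AAGGTCA, the site of the ERR receptors, was found in Cnnm3, starting 235 bases before its start site on the reverse strand, and in none of the other 7 windows. It was in 4.71% of all promoters. Trpm6, Cnnm2 and Rragd held neither motif in these windows. The GC content of the 250 bases was 54.4% for Trpm6, 68% for Cnnm2 and 60.4% for Trpm7.

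Lists of other genes of magnesium handling were also fixed by name with earlier results of these data known. Of 13 other magnesium transporters, 11 had enough counts in cortex for TAL-β over TAL-α and 10 in medulla, and Cnnm1 was past 1.5-fold in both. In cortex Slc41a2 (1.65) and in medulla Mmgt2 (0.498) also passed, named here after their values were seen. Their median log2 ratios were -0.06 and -0.14, against 0.01 and -0.02 over all genes. Neither of the 2 measured CNNM partners reached 1.5-fold in either library.

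Of the paracellular route, Cldn16 was higher in TAL-β than in TAL-α, with ratios of 1.93 (1.75 to 2.12) in cortex and 4.21 (3.71 to 4.78) in medulla, and Cldn10, the sodium-permeable claudin, was lower at 0.525 and 0.234. Cldn19, the partner of claudin 16, did not reach 1.5-fold, at 1.40 (1.27 to 1.54) and 1.41 (1.23 to 1.61). Of the renal regulators of magnesium, Casr and Kcnj10 were past 1.5-fold in both libraries, where 9.43% (cortex) and 14.9% (medulla) of all genes passed in each. Casr, the calcium-sensing receptor, had ratios of 1.62 and 2.48 and Kcnj10, the basolateral potassium channel Kir4.1, of 8.04 and 12.9.

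Between DCT and TAL in cortex, 2 of 11 other magnesium transporters with enough counts were higher and 1 was lower. Of 4 genes of the paracellular route, 2 were lower and 1 higher. Of all genes compared, 34.3% passed. Cldn16 had a DCT over TAL ratio of 0.330 (0.204 to 0.506) and Cldn19 of 0.221 (0.121 to 0.371). Cldn14, named after its values were seen, had a ratio of 1.95 (0.388 to 6.04) on 3 DCT counts, and Cldn10 of 0.804 (0.621 to 1.02). Of 9 renal regulators, 4 were past 1.5-fold and all were lower in DCT: Casr (0.347), Egf (0.484), Umod (0.438) and Fxyd2 (0.536), the last 3 named after their values were seen. Of 16 genes of the Rag GTPase and TFEB pathway, 4 were higher and 2 lower in DCT, a share near the 34.3% of all genes, and Rragb (2.69) and Fnip2 (1.82) were those whose intervals did not hold 1. In cortical MD over TAL-α 3 of 15 were higher and 0 lower, a share not above the 25.4% of all genes: Rragb (2.15), Flcn (1.60) and Fnip1 (1.75). These were also named after their values were seen. None of 15 reached 1.5-fold between cortical TAL-β and TAL-α, and 1 (Flcn, 0.607) did in medulla.

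The genes whose levels followed each member most closely were ranked by Pearson r of log2(CPM + 1) over the 9 class and library points of at least 50 barcodes, which share 2 libraries and 1 DCT point, among 10988 genes. For Trpm6 these were Ptbp3 (0.970), Klhl3 (0.965) and Mgat4c (0.965), for Cnnm2 Zmynd12 (0.958), Clint1 (0.945) and Dlg3 (0.943), and for Trpm7 Marchf5 (0.971), Thumpd3 (0.937) and Tango6 (0.934). For Rragd they were Zfp40 (0.980), Tgfbr1 (0.979) and Dpysl2 (0.977). Slc41a3, with 32 counts over the 9 points, gave Arf5 (0.961), Rmdn3 (0.960) and Tex2 (0.953), an order its counts cannot fix.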

How the data were processed

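Nuclei were captured with a PIPseq 3′ kit and sequenced on a NextSeq2000. The authors aligned reads to GRCm39 and called barcodes with PIPseeker and deposited raw and filtered matrices of whole-number counts per gene and barcode. The submitters' processing notes also name bcl2fastq and Seurat 4.4.0. Called barcodes had the same counts in both matrices (0 values differed), so the deposited counts had no ambient correction. No barcode was left out as a doublet. The doublet alternative removed the 5% highest Scrublet scores (scanpy) of each library. Deposited cluster and embedding tables were not used.

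Counts were summed per class and library. Barcodes with at least 5 Slc12a3 counts were kept out of the TAL classes. Intervals were exact Poisson (levels), Clopper-Pearson (shares) and conditional binomial (ratios) at 95%. Classes under 50 barcodes gave no ratio. PT-type barcodes had at least 10 counts over 6 PT markers and at most 2 Slc12a1 counts. Thinning drew 1000 counts per barcode without replacement. Python 3.11.15, numpy 2.4.6, scipy 1.17.1, pandas 2.3.3 and scanpy 1.11.5 were used, and the ratio code was tested on simulated data. The 8 genes, the pathway lists and the class rule were chosen with earlier results of these data known. All 8 genes were named. Pathway genes were named when past 1.5-fold in the same direction in both libraries, with Cldn16 and Cldn19. Ptp4a1, listed under 2 identifiers, was left out. Gene positions are from GENCODE M39. Values of 1 gene of the pathway lists and of 1 motif are not reported here.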

Additional observations from a re-analysis of the deposited data

How the results depend on the processing

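Of the recomputed ratios of single genes, 566 stayed within the counting interval of the reported value and 44 left it, and none of those past 1.5-fold changed direction. The number of genes past 1.5-fold stayed within 1.5 times for TAL-β over TAL-α in both libraries and for DCT over TAL. For TAL-γ over TAL-α in medulla it was 1 instead of 2 with classes set by Cldn10, Cldn16 and Kcnj10. For MD over TAL-α in cortex it was 4 instead of 2 with stricter class thresholds. For TAL-α medulla over cortex it was 1 instead of 2 with looser class thresholds and when thinned to 1000 counts. For TAL-β medulla over cortex it was 2 instead of 1 with barcodes of at least 5 Slc12a3 counts kept, with looser class thresholds and at a minimum of 10 summed counts. The cause of these changes was not tested. No DCT over TAL ratio was computed for medulla (15 barcodes) or for the 45 cortical DCT barcodes with under 10 Slc12a1 counts. Leaving out TAL barcodes with any Slc12a3 count was chosen after seeing the data. No paired analysis was possible because each region had 1 library, and no replicate could be left out. At these depths Slc41a3, and Trpm6 outside DCT and MD, were too sparse to rank the TAL classes.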
